A study of Homo sapiens with 15 samples.

Results

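The genes described here are 10 myeloid effector and surface genes, LYZ, MPO, ELANE, PRTN3, AZU1, CTSG, CD14, CD68, CSF1R and CD33, chosen by name as granule and monocyte markers. Of these 10 genes, 9 had a probe that the platform annotation assigns to them, out of 18334 genes measured in all. No probe was assigned to CD33, the sialic acid-binding receptor of early myeloid cells, so it has no value. Each of the other 9 was read by 1 probe, so that a gene's value is that probe's value and no second probe checks it. No filter on low values was used, and all 9 entered every test.

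The samples were cells of K562, an established line grown from a chronic myeloid leukaemia in blast crisis that keeps erythroid and megakaryocytic features and is labelled DNSZ K562. Cells treated with 1 mM valproic acid, a short branched fatty acid used against epilepsy that inhibits histone deacetylases, were set against cells left untreated, at 5 times (2, 6, 10, 48 and 72 h). Both RNAs of a time point shared a 2-colour array; each time has 3 such arrays, 15 in total, and per the labels each replicate came from its own thawing of this 1 line. The dyes were exchanged in replicate 3, where treated RNA has Cy3 in place of the Cy5 of the other replicates. All values are log2 ratios of treated over untreated RNA, so 0 means equal RNA in both and a positive value means more in treated cells. The log base was not stated and was read as log2, on which the folds rest. Signal intensities were not used here, so a ratio near 0 cannot tell a gene held at 1 level from a gene too dim to measure, the labelled cell type could not be checked by expression levels, and only ratios can be compared. In these bulk samples, a change in the number of cells that express a gene cannot be told apart from a change in the RNA of each cell. Replicate 3 followed the mean of replicates 1 and 2 with a correlation over all 45220 probes of −0.09 at 2 h and 0.57 at 48 h, so its orientation is least certain at 2 h.

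Myeloid cells store antimicrobial proteins in granules before they meet a microbe. Azurophil granules, made at the promyelocyte stage, hold myeloperoxidase (MPO), the serine proteases neutrophil elastase (ELANE), proteinase 3 (PRTN3) and cathepsin G (CTSG), and azurocidin (AZU1), a relative of these proteases that has lost their activity. Lysozyme (LYZ) cuts bacterial cell walls and is made by granulocytes, monocytes and macrophages, as well as by secretory epithelia. Monocytes carry CD14, which hands bacterial lipopolysaccharide to Toll-like receptor 4, and CSF1R, the receptor for macrophage colony-stimulating factor, while CD68 is a glycoprotein of macrophage lysosomes. The transcription factors PU.1 and C/EBP are known activators of many of these genes.

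Promoter sequences, from 250 bases before to 50 bases after a start site, are shown for PRTN3, CD68 and AZU1. PRTN3 had a small late increase, and CD68 passed the test at 72 h only, there through 1 array. AZU1 lies next to PRTN3 on chromosome 19 and did not pass the test at any time. The sequences come from RefSeq on build GRCh38.p14, in the direction of the gene. Capitals mark AGGAAG, a core that PU.1 and other ETS factors can bind, on either strand. They are PRTN3 (chr19:840749-841048, plus strand), AZU1 (chr19:827587-827886, plus strand) and CD68 (chr17:7579388-7579687, plus strand).
PRTN3 promoter: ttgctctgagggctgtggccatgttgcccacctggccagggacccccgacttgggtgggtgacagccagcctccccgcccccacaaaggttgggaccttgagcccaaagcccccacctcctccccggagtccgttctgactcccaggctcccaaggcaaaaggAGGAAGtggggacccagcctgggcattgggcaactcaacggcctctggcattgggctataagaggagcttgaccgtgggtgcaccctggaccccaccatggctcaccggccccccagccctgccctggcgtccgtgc
AZU1 promoter: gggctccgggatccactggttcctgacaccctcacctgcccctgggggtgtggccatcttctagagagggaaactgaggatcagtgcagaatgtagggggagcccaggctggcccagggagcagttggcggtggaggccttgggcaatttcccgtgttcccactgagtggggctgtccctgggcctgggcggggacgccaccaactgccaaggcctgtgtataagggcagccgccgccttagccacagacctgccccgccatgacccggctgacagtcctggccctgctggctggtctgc
CD68 promoter: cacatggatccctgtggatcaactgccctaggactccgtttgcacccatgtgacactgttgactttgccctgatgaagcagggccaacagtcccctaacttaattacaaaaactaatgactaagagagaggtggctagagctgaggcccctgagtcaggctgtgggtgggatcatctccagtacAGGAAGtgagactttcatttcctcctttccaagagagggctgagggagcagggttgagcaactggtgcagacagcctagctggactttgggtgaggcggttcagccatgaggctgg
The core stands at −87 from the start site of PRTN3 and at −66 from that of CD68, and these letters are not in the AZU1 window. It occurs in 33.6% of all 35116 promoters of this length. Of the listed genes, 7 had 1 or more promoters in the table, 8 windows in all, and 6 of the 8 held the core. LYZ, MPO and ELANE had no window, so nothing is said here of their promoters. Among the windows with the core was that of CD33, which has no ratio. TTGCNNAA, which C/EBP factors can bind, was found on either strand at −62 in PRTN3, −111 in AZU1 and −13 in CD68. It was in 3 of the 8 windows, all of them shown here, and in 10.5% of all promoters. The TATA-like TATAA stands at −31 in both PRTN3 and AZU1. It was in 2 of the 8 windows and in 20.4% of all promoters on either strand. The letters AGATAA, which erythroid GATA factors can bind, were in 0 of the 8 windows and in 10.3% of all promoters. None of these matches overlaps another in the 3 windows shown. They describe the letters only.

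Among the 9 measured genes, lysozyme was the only one with a large response, and it came late. LYZ was 3.23-fold higher in treated cells at 48 h and 3.38-fold higher at 72 h, where PRTN3 was 1.19-fold and CD68 1.14-fold higher. MPO, ELANE, AZU1, CTSG, CD14 and CSF1R did not pass the test at any time. In limma, with p values adjusted over all 18334 genes, 0 of the 9 genes passed at 2 h, 0 at 6 h, 1 at 10 h, 2 at 48 h and 3 at 72 h, all of them higher in treated cells. The shares of all genes that passed at these times, in either direction, were 6.35%, 28.7%, 29.7%, 37.9% and 35.8%. At no time was the share among the 9 genes above that of all genes passing in either direction. At an unadjusted p under 0.05, limma also found 0 of the 9 at 2 h and 0 at 6 h. The median log2 ratio of the 9 genes was 0.01 at 48 h and 0.04 at 72 h, against 0.01 at both times over all genes. By direction, 4.82%, 19%, 18.1%, 23.3% and 22.1% of all genes were higher in treated cells from 2 to 72 h, and 1.53%, 9.66%, 11.6%, 14.6% and 13.6% were lower. For late minus early 2 of the 9 genes passed, against 25.9% of all genes (14.9% higher and 11% lower), and for the F test over the 5 times 1 passed, against 23.3% of all genes. Counted as higher only, 3 of 9 passed at 72 h, against 22.1% of all genes, and 2 of 9 for late minus early, against 14.9%. With 9 genes, these counts do not set the genes apart from all genes. Of the 3 at 72 h, CD68 passed through 1 array, and the PRTN3 call ended without that same array, 72 h replicate 3 (limma adjusted p = 0.0622). For late minus early the PRTN3 call held under 14 of 28 alternative settings.

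**Figure D1:**
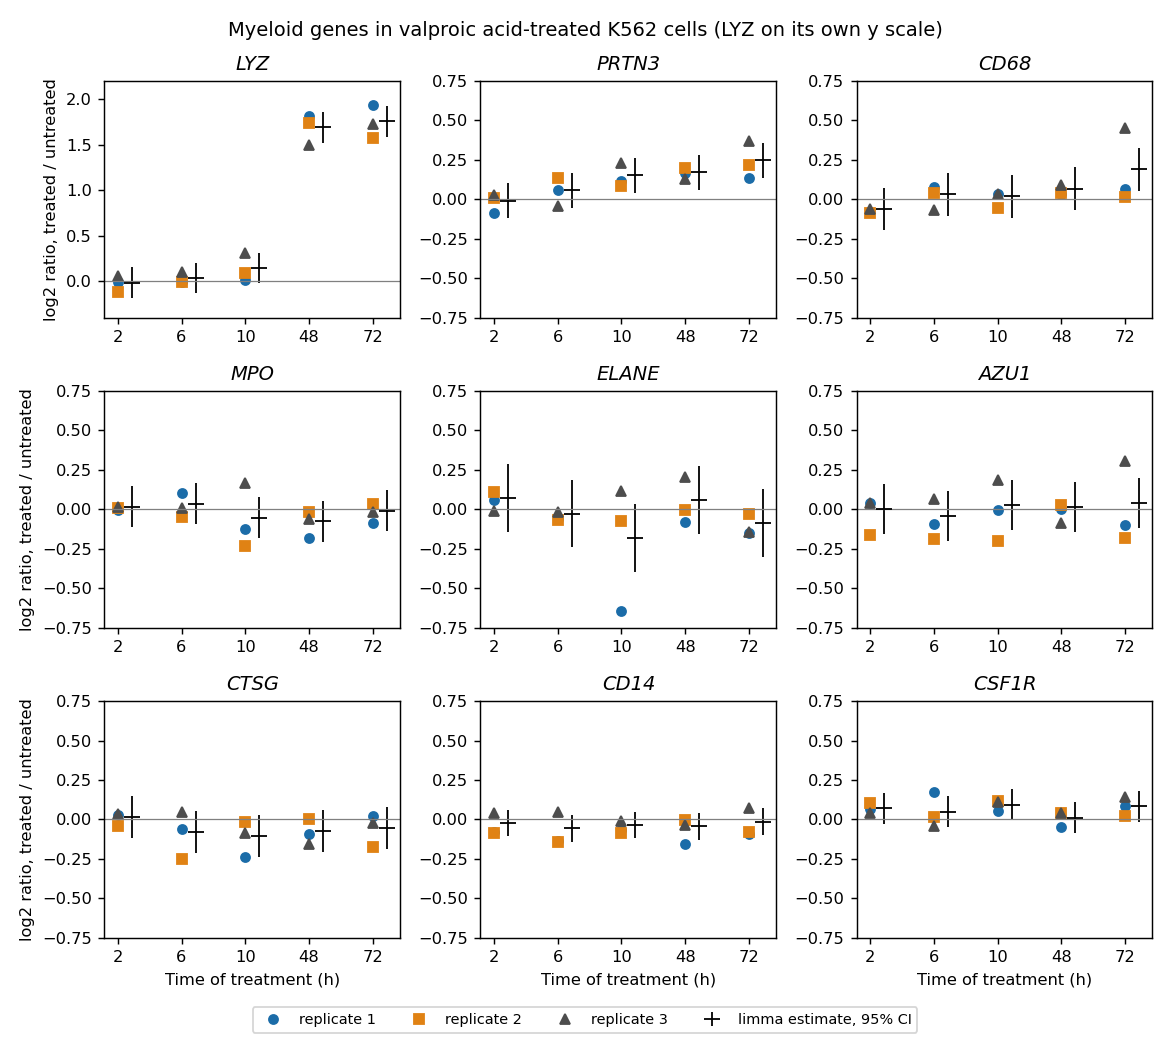
Log2 ratio of treated over untreated RNA (y axis) of 9 genes against hours of treatment (x axis, times evenly spaced), with 1 symbol for each of the 3 arrays and a bar for the limma estimate with its 95% confidence interval. LYZ, on its own scale, sits between 1.5 and 1.94 on the 6 arrays of 48 and 72 h, while most other points lie near 0.

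LYZ did not pass the test at 2, 6 or 10 h. Replicates 1, 2 and 3 read −0.01, −0.12 and 0.06 (log2 ratio, 2 h), then −0.01, −0.01 and 0.10 (6 h), then 0.02, 0.09 and 0.31 (10 h). At 48 h they read 1.81, 1.74 and 1.5, and at 72 h 1.94, 1.58 and 1.73. All 6 arrays of the 2 last times lay far above all 9 arrays of the first 3 times, with no overlap, and the array with exchanged dyes showed the rise as the others did. The fitted ratio was 1.69 ± 0.08 (SE, n = 3) at 48 h, with limma adjusted p = 8.28e-09, and 1.76 ± 0.08 at 72 h, with adjusted p = 7.21e-09. At 10 h it was 0.15 ± 0.08 (adjusted p = 0.187), and the value of 0.31 came from replicate 3.

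The step fell between 10 h and 48 h, with no time between them analysed here. The LYZ ratio at 48 h exceeded that at 10 h by 1.54 ± 0.11 (adjusted p = 7.73e-06), whereas 72 h minus 48 h was 0.06 ± 0.11 (adjusted p = 0.842), with a 95% confidence interval from −0.17 to 0.30. The late minus early difference, which subtracts the average of 2, 6 and 10 h from that of 48 and 72 h, was 1.67 ± 0.07 (adjusted p = 8.6e-09), a comparison that 25.9% of all genes passed. By size of that difference LYZ ranked 39th from the top among the 18334 genes. At a given time it ranked 142nd at 48 h and 115th at 72 h, against 11572nd at 2 h. LYZ stayed past the threshold at 48 h and 72 h without each array in turn.

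The genes whose ratios followed LYZ most closely over the 15 arrays were PAGE4, SCG3 and BMP7, each with a Pearson r of 0.98, out of 4276 genes that changed over time. SCG3, a secretory granule protein of neuroendocrine cells, had log2 ratios of 1.93 at 48 h and 1.99 at 72 h. PAGE4, a cancer/testis antigen, had 2.03 and 2.19, and BMP7, a bone morphogenetic protein, 0.54 and 0.63. These arrays share times and dye orientation, so the correlations only describe that the genes were also flat to 10 h and high afterwards. None of the other 8 genes correlated with LYZ above 0.65, the value for PRTN3.

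Of the lysozyme family, 9 further members were measured, most of them known from testis or milk. At 48 h 1 of the 9 was higher and 0 lower, and at 72 h 2 were higher and 0 lower, against 23.3% and 22.1% of all genes higher. The one at 48 h was LYG1, a goose-type lysozyme gene named after its values were seen, at 0.22 ± 0.08 (adjusted p = 0.0368), and at 72 h it was joined by SPACA3, a sperm lysozyme-like gene (0.19 ± 0.05, adjusted p = 0.00826), also named after its values were seen.

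Proteinase 3, a granule protease and the main autoantigen of granulomatosis with polyangiitis, showed a small upward drift. PRTN3 had log2 ratios of −0.09, 0.01 and 0.03 at 2 h and of 0.06, 0.14 and −0.04 at 6 h. From 10 h on, the values ran 0.12, 0.09 and 0.23 (10 h), 0.17, 0.20 and 0.13 (48 h) and 0.13, 0.22 and 0.37 (72 h). All 9 arrays from 10 h onward were above 0, and the highest was 72 h replicate 3. The fitted ratios were 0.15 ± 0.05 at 10 h (adjusted p = 0.0406), 0.17 ± 0.05 at 48 h (adjusted p = 0.0173) and 0.25 ± 0.05 at 72 h (adjusted p = 0.00197), by limma with SE and n = 3 arrays. The late minus early difference was 0.14 ± 0.05 (adjusted p = 0.0366), while limma's F test over the 5 times gave adjusted p = 0.0886. The late minus early call held under 14 of 28 alternative settings.

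These PRTN3 calls were fragile. The call at 10 h ended without 2 h replicate 1, 2 or 3, 6 h replicate 1 or 10 h replicate 1, 2 or 3, and without all arrays of any 1 thawing, with adjusted p between 0.0503 and 0.33. At 48 h it ended without 48 h replicate 1 (0.0716) or 2 (0.103), or without all arrays of thawing 1 (0.11) or 2 (0.146), and at 72 h without 72 h replicate 3, where the ratio was 0.18 (0.0622). By correlation over the 15 arrays the ratios most like PRTN3 were those of NTNG2 (r = 0.87), FBXO2 (0.86) and SLC4A3 (0.86), of 4277 genes, and NTNG2 reached 1.64 at 72 h, where PRTN3 had 0.25.

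CD68, the macrophage lysosomal glycoprotein, was past the threshold at 72 h only, and there through 1 array. Its log2 ratios began at −0.08, −0.08 and −0.06 (2 h), followed by 0.08, 0.04 and −0.07 (6 h), then 0.03, −0.06 and 0.03 (10 h). At 48 h they were 0.04, 0.04 and 0.09, and at 72 h 0.06, 0.01 and 0.45. Replicate 3 at 72 h stands apart from every other value of CD68. The fitted ratio at 72 h was 0.19 ± 0.06 (adjusted p = 0.0314), and without 72 h replicate 3 it was 0.04 ± 0.05 (adjusted p = 0.698). Without all arrays of thawing 1 or 2 the adjusted p was 0.0834 and 0.052. The late minus early difference of 0.13 ± 0.06 did not pass (adjusted p = 0.109), but did without 72 h replicate 2 (0.17, adjusted p = 0.0432). On the same array AZU1 and PRTN3 also had their highest ratios, 0.31 and 0.37, and the part of that array in these values was not tested.

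**Figure D2:**
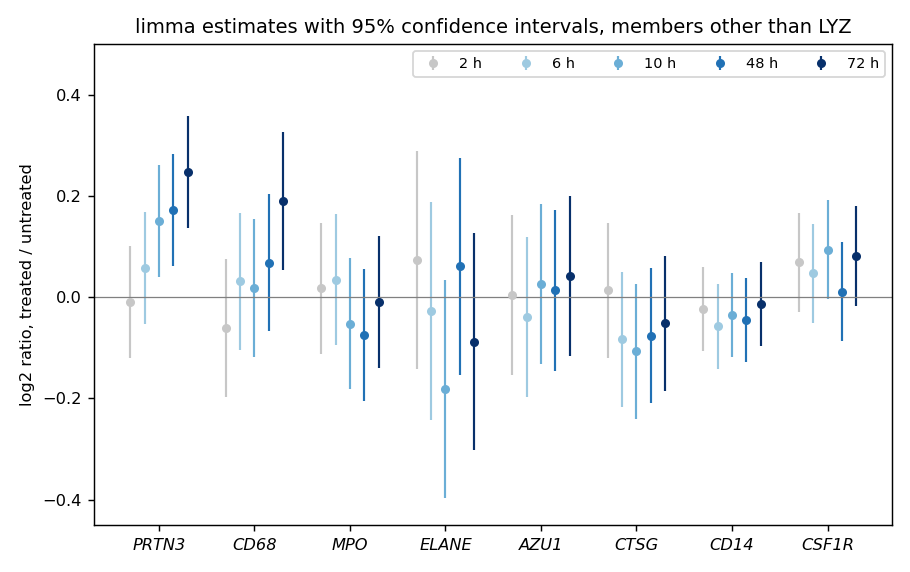
limma estimates of the log2 ratio of treated over untreated RNA (y axis) with 95% confidence intervals for the 8 measured genes other than LYZ (x axis), at 5 times from light to dark. Only PRTN3 from 10 h and CD68 at 72 h have intervals above 0.

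The other azurophil granule genes gave ratios around 0 at all times. MPO, which makes hypochlorous acid from hydrogen peroxide and chloride, had log2 ratios from −0.23 to 0.16 over the 15 arrays. Its estimate was −0.07 ± 0.06 at 48 h and −0.01 ± 0.06 at 72 h. The interval of the measured ratio at 72 h ran from −0.14 to 0.12, or up to 1.09-fold upward. A probe too dim to measure could also read near 0, so this interval does not bound the change in MPO RNA. CTSG, a protease that is stored with elastase, lay between −0.25 and 0.04, with estimates from −0.11 at 10 h to 0.01 at 2 h. AZU1 lay between −0.20 and 0.31, with estimates from −0.04 at 6 h to 0.04 at 72 h.

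ELANE, the elastase gene mutated in cyclic neutropenia, was the noisiest of the 9 genes, with a residual SD of 0.19 against a median of 0.11 over all genes. Its lowest value was −0.65 in 10 h replicate 1, beside −0.08 and 0.12 in replicates 2 and 3. At 72 h its ratios were −0.15, −0.03 and −0.14. The estimate at 72 h was −0.09 ± 0.10 (adjusted p = 0.558), with an interval from −0.30 to 0.13, so a ratio as low as −0.30 lies within the error.

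Of the monocyte receptors, CD14 had the tightest values. Its 15 ratios lay between −0.15 and 0.07, only 4.91% of genes had a smaller residual SD than its 0.05, and its estimates ran from −0.06 at 6 h to −0.01 at 72 h. Every CD14 ratio of replicates 1 and 2 was below 0, and those of replicate 3 ran from −0.03 to 0.07. The dye term, which sets replicate 3 apart, passed for CD14 (−0.06 ± 0.02, adjusted p = 0.0357), and the sign of replicate 3 was opposite at 2, 6 and 72 h and the same at 10 and 48 h. Dye orientation and thawing cannot be told apart here. CSF1R lay between −0.05 and 0.17, with its highest estimate of 0.09 ± 0.05 at 10 h (adjusted p = 0.15) and 0.08 ± 0.05 at 72 h (adjusted p = 0.194). Over MPO, ELANE, AZU1, CTSG, CD14 and CSF1R together, 84 of 90 values were within 0.2 of 0.

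By their estimates at 72 h, the 9 genes ran from LYZ (1.76) through PRTN3 (0.25), CD68 (0.19), CSF1R (0.08), AZU1 (0.04), MPO (−0.01), CD14 (−0.01), CTSG (−0.05) and ELANE (−0.09). The interval of LYZ was clear of all others. That of PRTN3 was clear of those of MPO, CD14, CTSG and ELANE. Every other pair of neighbours in this order had overlapping intervals and is not resolved.

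AZU1, PRTN3 and ELANE lie side by side in a cluster on chromosome 19, and the next measured gene, CFD, encodes the serine protease complement factor D. CFD rose, while AZU1 and ELANE did not pass at any time and PRTN3 stayed at or under 0.25. Its log2 ratios were 0.95, 0.90 and 0.86 at 48 h and 0.91, 1.82 and 1.32 at 72 h, with estimates of 0.91 ± 0.12 (adjusted p = 7.7e-05) and 1.36 ± 0.12 (adjusted p = 2.75e-06). CFD already passed at 6 h (0.49 ± 0.12, adjusted p = 0.00976), when the 3 cluster genes did not. The difference between CFD and its neighbours was not tested. On its other side MED16, a Mediator subunit, was lower (−0.48 at 48 h, adjusted p = 0.000704), and so was the splicing regulator gene PTBP1 before the cluster (−0.58, adjusted p = 0.00251).

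**Figure D3:**
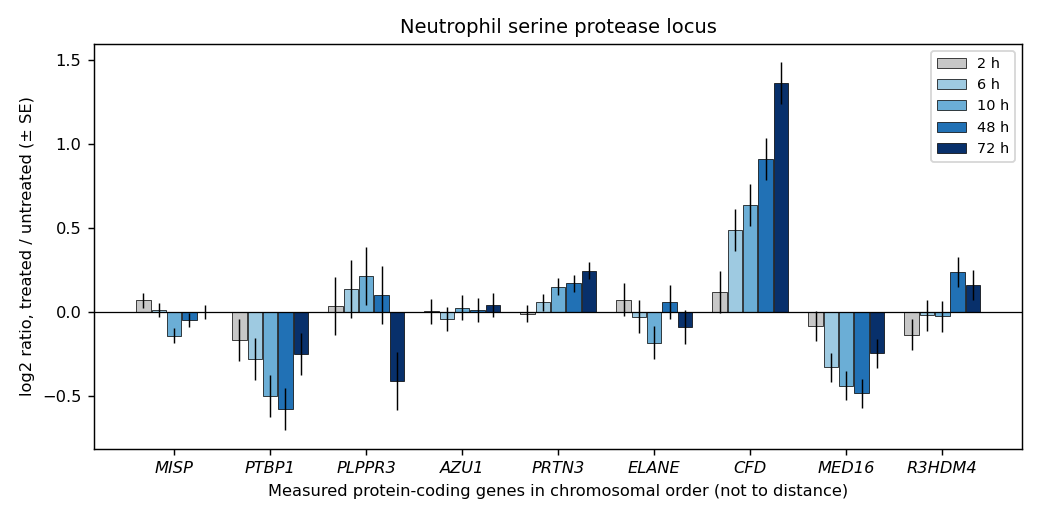
Log2 ratio of treated over untreated RNA with SE (y axis) of AZU1, PRTN3 and ELANE and the 3 nearest measured protein-coding genes on each side, in chromosomal order and not to distance (x axis), at 5 times from light to dark. CFD reaches 1.36 at 72 h beside ELANE at −0.09.

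LYZ, in contrast, rose among neighbours that did not. Of the 6 nearest measured genes on chromosome 12, 0 were higher and 2 were lower at 48 h, namely CPSF6, a pre-mRNA cleavage factor (−0.23), and MDM2, the ubiquitin ligase of p53 (−0.11), and their ratios all lay between −0.23 and 0.10. Beside CTSG, the granzyme genes GZMH and GZMB had −0.08 and 0.05 at 48 h. Beside MPO, the related peroxidase genes LPO and EPX had 0.06 and −0.06. None of these 4 passed at 48 h or 72 h, and EPX passed at 10 h (0.16 ± 0.05, adjusted p = 0.0314). PDGFRB, the receptor gene next to CSF1R, had 0.07 at 48 h. Around CD68, the genes EIF4A1 (−0.43), MPDU1 (−0.43) and SENP3 (−0.36) were lower at 48 h, while CD68 itself had 0.07. Next to CD14, NDUFA2, a subunit of respiratory complex I, was higher at 48 h (0.26, adjusted p = 0.00738) and 72 h (0.46).

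Further genes of the granule programme were counted from lists. Of 15 other azurophil and eosinophil granule genes 1 was higher and 1 lower at 72 h, where 22.1% of all genes were higher and 13.6% lower. The one higher was PRG2, the eosinophil major basic protein (0.66 ± 0.14, adjusted p = 0.00196), and the one lower PRSS57, neutrophil serine protease 4 (−0.34 ± 0.06, adjusted p = 0.000747). Of 25 genes of the specific and gelatinase granules, which form later in neutrophil maturation, 6 were higher and 1 lower at 48 h, and 5 and 1 at 72 h. The share higher was close to that of all genes (23.3% and 22.1%), and the share lower was below theirs (14.6% and 13.6%). MMP9, the gelatinase itself, rose to 1.04 ± 0.09 at 48 h (adjusted p = 2.36e-06), TCN1, a vitamin B12 carrier, to 0.86 ± 0.09 (adjusted p = 5.77e-06) and the adhesion molecule gene CEACAM1 to 0.33 ± 0.04 (adjusted p = 4.46e-05).

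Genes that activate or restrain granule proteases were higher in 5 of 13 cases and lower in 2 at 48 h, with a median of 0.04, and higher in 5 and lower in 1 at 72 h, with a median of 0.12. Of all genes 23.3% were higher and 14.6% lower at 48 h, and 22.1% and 13.6% at 72 h, with a median of 0.01 at both times. SERPINB9, an inhibitor of granzyme B, had 1.07 ± 0.08 at 48 h (adjusted p = 5.98e-07). SERPINB1, which inhibits elastase, proteinase 3 and cathepsin G, had 1.14 ± 0.16 at 48 h (adjusted p = 0.000113), and its call at 72 h (0.65) ended without 72 h replicate 1 or 3. The general protease inhibitors CST3 (0.37) and A2M (0.36) were higher at 48 h as well.

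Monocyte and macrophage surface genes were higher in 8 of 42 cases and lower in 2 at 48 h, and higher in 11 and lower in 3 at 72 h. Of all genes 23.3% were higher and 14.6% lower at 48 h, and 22.1% and 13.6% at 72 h. CD53, a leukocyte tetraspanin (1.28 ± 0.10, adjusted p = 7.48e-07), PLAUR, the urokinase receptor (1.13 ± 0.07, adjusted p = 1.63e-07), FCGR2A, a low-affinity IgG receptor (1.01 ± 0.17, adjusted p = 0.000397), and ADGRE1, the human F4/80 gene (0.94 ± 0.12, adjusted p = 6.07e-05), led at 48 h. FCGR2A did not pass at 72 h (0.34 ± 0.17, adjusted p = 0.138), where its replicates read 1.14, −0.19 and 0.14. Of 13 partners of CD14 in lipopolysaccharide signalling 1 was higher and 3 lower at 48 h, and 0 and 1 at 72 h. Lower at 48 h were the kinase gene IRAK1 (−0.67 ± 0.13, adjusted p = 0.000965), the adaptor gene TIRAP (−0.29 ± 0.05, adjusted p = 0.00034) and LY86 (−0.13, adjusted p = 0.0279). Higher at 48 h was TICAM2 (0.24, adjusted p = 0.0276). The calls of LY86 and TICAM2 each ended in 4 of 18 settings with arrays left out. Of 12 ligands and receptors related to CSF1R 2 were higher at 72 h, namely the receptor chains for interleukin-3 (IL3RA, 1.61 ± 0.12, adjusted p = 5.66e-07) and granulocyte-macrophage colony-stimulating factor (CSF2RA, 0.53 ± 0.07, adjusted p = 6.5e-05). Of 13 relatives of CD33 and their phosphatases 3 were higher and 2 lower at 48 h, among the lower MAG, a myelin Siglec (−0.41, adjusted p = 0.00368), a call that ended without 48 h replicate 3 (0.0525) or all arrays of thawing 3 (0.106). At 72 h 2 were higher and 0 lower, a share below the 22.1% of all genes that were higher, namely SIGLEC6 (0.85 ± 0.07, adjusted p = 7.39e-07) and SIGLEC5 (0.25 ± 0.05, adjusted p = 0.00215). Among the higher calls at 48 h, that of SIGLEC12 ended in 3 of the 18 settings with arrays left out and that of SIGLEC5 in 2.

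Lysosomal genes had larger shares. Of all genes 23.3% were higher at 48 h and 22.1% at 72 h, with a median of 0.01 at both times. Of 11 cathepsin genes other than CTSG 6 were higher at 48 h and 7 at 72 h, with 0 lower and a median of 0.32 and 0.33. They were led at 48 h by CTSV (2.75 ± 0.13, adjusted p = 1.43e-08), CTSF (1.27 ± 0.08) and CTSB (1.08 ± 0.10), which act inside lysosomes, unlike CTSG. Of 9 lysosome membrane relatives of CD68 4 were higher at 48 h and 4 at 72 h, 3 of them the same genes, among them LAMP2 (0.48 ± 0.05, adjusted p = 4.62e-06) and CD63 (0.60 ± 0.10, adjusted p = 0.000352) at 48 h. Of these membrane genes, SCARB2 lost its call at 48 h in 3 of 18 settings with arrays left out, and LAMP3 its call at 72 h in 4. The median of the 9 membrane genes was 0.21 at 48 h and 0.08 at 72 h. Both lists were already higher at 6 h, with 5 of 11 cathepsin genes and 5 of 9 membrane genes, against 19% of all genes. For late minus early the median of the membrane genes was −0.05. Among 10 granzymes and related proteases 1 was higher at 72 h, and that was CFD.

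**Figure D4:**
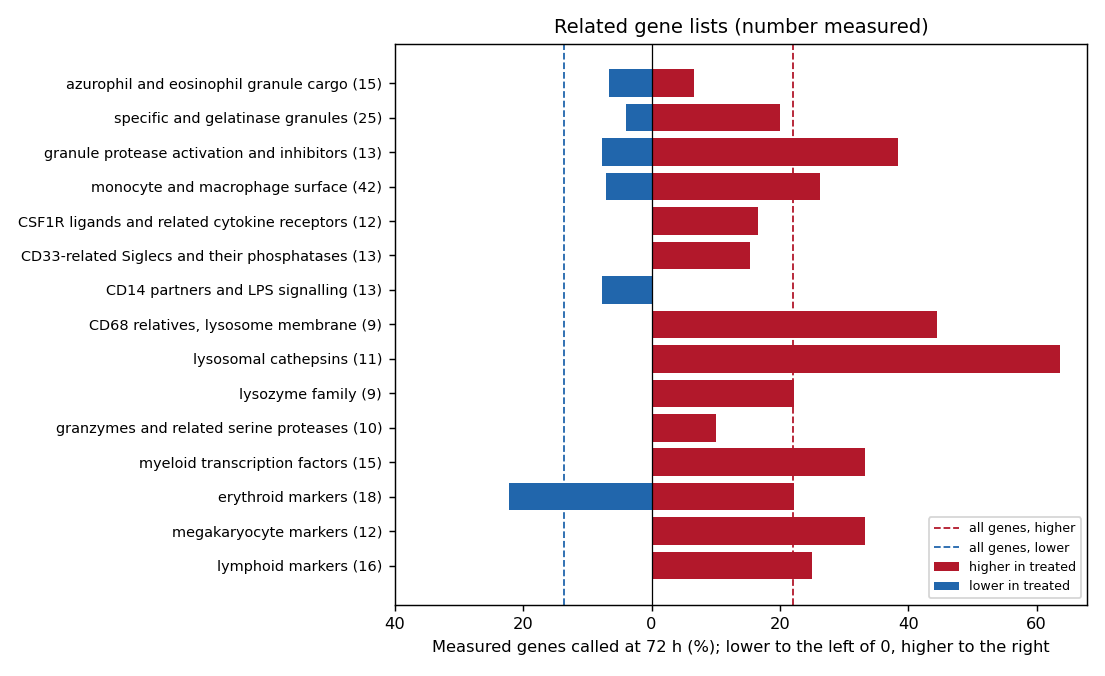
Percent of the measured genes of 15 lists (y axis, number measured in brackets) that were higher (right) or lower (left) in treated cells at 72 h by limma (x axis), with dashed lines at the shares of all genes, 22.1% and 13.6%. Lysosomal cathepsins extend farthest to the right, with 7 of 11 higher.

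Markers of other lineages were counted beside these genes, at times when 23.3% (48 h) and 22.1% (72 h) of all genes were higher and 14.6% and 13.6% lower. Of 18 erythroid markers 3 were higher and 7 lower at 48 h. Among the lower were HBB (−1.07 ± 0.15) and KLF1 (−0.84 ± 0.09). At 72 h 4 were higher and 4 lower. The median of the 18 was −0.37 at 48 h and −0.001 at 72 h, against 0.01 at both times over all genes. Of 12 megakaryocyte markers 3 were higher at 48 h and 4 at 72 h, near or somewhat above the share of all genes, with GP9 at 0.51 ± 0.07 at 48 h. Of 16 lymphoid markers 4 were higher at each time, near the share of all genes, and CD3D, a chain of the T cell receptor complex, reached 1.55 ± 0.12 at 48 h (adjusted p = 5.98e-07) and 1.57 ± 0.12 at 72 h, close to the ratio of LYZ. Some marker calls at 48 h ended in part of the 18 settings with arrays left out. Among erythroid markers, that of HEMGN ended in 1. Among megakaryocyte markers, that of THBS1 ended in 13 and that of ITGA2B in 2. Among lymphoid markers, those of CD79B and PRF1 each ended in 4 and that of CD3G in 1. The part of the lineage markers in the LYZ result was not tested. Among 15 myeloid transcription factors 7 were higher and 1 lower at 48 h, led by ID2 (2.05) and EGR1 (1.77). SPI1, the gene of PU.1, named after its values were seen, had 0.05 ± 0.06 at 48 h (adjusted p = 0.517). CEBPD, the gene of a C/EBP factor, was higher at 48 h (0.56 ± 0.11, adjusted p = 0.0013), where its replicates read 0.92, 0.89 and 0.10. It did not pass at 72 h (0.13 ± 0.11, adjusted p = 0.434). The part of these factors in the ratios of the granule and monocyte genes was not tested.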

How the data were processed

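The authors' deposited table holds log ratios of treated over untreated RNA, read as log2, for 45220 probes on 15 arrays, and the submitters' processing notes name limma, with no role; background correction and normalization are not given in the sources used here. Values spanned −4.09 to 4.83, and no value column went unused. Of the probes 31332 had 1 symbol and were kept, 93 had several and 13795 had none; 31291 of the kept probes matched the RefSeq gene table (GRCh38.p14) by gene ID and took its symbol, and probes were averaged into 18334 genes. The linear model for every gene (limma 3.58.1 under R 4.3.3, functions lmFit and eBayes) had 5 time means plus a dye term (9 residual degrees of freedom, prior 3.47), adjusted by Benjamini-Hochberg over all genes and called under 0.05. Any effect of thawing 3 itself also falls into the dye term. Scripts were tested on simulated data with known changes. Per the labels a replicate number marks a thawing; deviations of same-numbered arrays correlated on average by 0.18, 0.15 and 0.52 for replicates 1, 2 and 3. The members and lists were chosen with earlier results of these data known, and the motifs with the ratios known. From each list the text names up to 4 genes called at 48 h with 1 sign on all 3 arrays, by size. Genome neighbours were the 3 nearest on each side, of which the text names some. For likeness the text names the 3 highest correlations. Alternatives covered the dye term, thawing blocks, arrays left out, scaling, weights, probes and orientation. The number of arrays limits the precision.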

Additional observations from a re-analysis of the deposited data

Results flagged for a closer look

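LYZ responded differently at different times, by the test of the difference itself. Its mean log2 ratio at 48 and 72 h minus that at 2, 6 and 10 h was 1.67 ± 0.07 (SE; limma adjusted p = 8.6e-09), with all 6 late arrays above all 9 early ones, and the F statistic over the 5 times was 144 (adjusted p = 2.17e-07). PRTN3 differed too, by a much smaller 0.14 ± 0.05 (adjusted p = 0.0366), with the F test not passed (adjusted p = 0.0886). CD68 had 1 sign on all arrays of 2 h and the opposite sign on all arrays of 48 h and 72 h, but neither difference passed (72 h minus 2 h 0.25 ± 0.09, adjusted p = 0.061; 48 h minus 2 h 0.13 ± 0.09, adjusted p = 0.357).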

How the results depend on the processing

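LYZ passed at 48 h and 72 h under all 29 alternatives other than the one that turns the sign of replicate 3 at all times, with log2 ratios from 1.26 to 1.83 and from 1.35 to 1.84. Leaving out arrays or thawings (18 settings) gave 0 to 0 genes called of the 9 at 2 h and at 6 h, 0 to 1 at 10 h, 1 to 2 at 48 h, 1 to 3 at 72 h, 1 to 2 for late minus early and 1 to 1 for the change over time. The replicate block, fixed or random with the dye term, left the counts at 0, 0, 1, 2 and 3 from 2 to 72 h and changed no call of the 9 genes. At 10 h, 0 were called without the dye term, with each time fitted alone, with arrays scaled to a common spread, with each probe on its own and with the sign of 2 h replicate 3 turned, and 2 with array weights, which also gave 2 for the change over time. Each time alone called 1 at 48 h and 1 at 72 h, and common spread and quantile scaling each called 1 for late minus early. The CD68 call at 72 h also ended without the dye term (adjusted p = 0.0599), with common spread (0.0623), with quantile scaling (0.0674) and with each time alone (0.357). ELANE at 10 h had −0.36 (adjusted p = 0.0499) without replicate 3. With the sign of replicate 3 turned at all times, 0 were called at 10 h, 48 h, 72 h, late minus early and over time, LYZ had 0.44 at 48 h (adjusted p = 0.875), and these turned: PRTN3 −0.051 at 10 h and −0.047 at 72 h, CD68 −0.14 at 72 h; at 48 h PRSS57 0.062, TCN1 −0.010, CYBA −0.0045, SIGLEC5 −0.023, SIGLEC12 −0.030, LY86 0.054, ITGA2B −0.15, CD3G −0.11 and PRF1 −0.014; at 72 h TCN1 −0.045, A2M −0.024, PLAUR −0.063, ADGRE1 −0.11, CSF2RA −0.074, LAMP3 −0.011, CTSB −0.13, ID2 −0.016, HEMGN 0.066 and CD79B −0.079. The causes were not tested. Over all genes 1165 were called at 2 h, and 5 of the 18 settings with arrays left out moved this by over 1.5 times, namely without 2 h replicate 3 (398), 1 (526) or 2 (689) and without all arrays of thawing 1 (593) or 3 (612). It was 3875 with common spread, 4280 with quantile scaling and 3253 with array weights, 1771 probes with each probe on its own, and 0 with 2 h replicate 3 turned. At 72 h 6559 were called, against 4309 without replicate 3, 4213 without 72 h replicate 3 and 2999 with each time alone. At 10 h 5438 were called, against 3389 without 10 h replicate 3 and 2712 with each time alone. Late minus early called 4755, against 1998 without replicate 3, and the change over time 4277, against 2838 without the dye term, 2389 without replicate 2 and 920 without replicate 3. With replicate 3 turned at all times, between 0 and 2 genes were called in each comparison. A prior that follows mean intensity and a filter on dim probes were not run, since intensities were not used here.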
